A study of Mus musculus with 4 samples.

Results

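Lysosomal genes were examined across the CD45+ leukocytes of EO771 mammary tumors. The 40 genes encode enzymes, membrane proteins, proton pump subunits and 1 transcription factor of the lysosome, out of 32285 genes in the deposited count table. They were chosen by function: 10 proteases, 8 glycosidases, 7 proteins of lipid handling, 7 membrane proteins, 5 subunits of the proton pump, 2 phosphatases and the transcription factor gene Tfeb. All 40 had UMIs in these cells and all 40 passed the low-count filter when cell types were compared.

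EO771 is a mouse mammary carcinoma cell line that was grown in the mammary fat pad of female mice. The hosts were 2 Csf1r fl/fl mice and 2 Lyve1Cre Csf1r fl/fl mice, so that both genotypes carried the floxed Csf1r gene and only the second carried Cre, driven by the Lyve1 gene. The Cre deletes Csf1r, the receptor that macrophages need to survive, in cells that have expressed Lyve1, a gene also active in lymphatic endothelium. Viable CD45+ cells were sorted and sequenced from the 3′ end in 2 Chromium runs. A run held 1 tumor per genotype, told apart by hashtag antibodies, and tumors are numbered by their run. The ages of the mice were not given in the sources used here. Cell types were rebuilt here from lists of lineage markers that hold no lysosomal gene, because the files used name no cell types. Levels were expressed as UMIs per 10000 UMIs of the gated cells of a tumor. Values of the 4 tumors are listed in the order Csf1r fl/fl tumors 1 and 2, then Lyve1Cre Csf1r fl/fl tumors 1 and 2. Means have the SD over these 4 tumors. The UMIs are not scaled for gene length, and levels of different genes are not ranked against each other.

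The lysosome is the acidic compartment in which cells break down what they engulf, bind or recycle. A proton pump of many subunits acidifies its lumen, soluble hydrolases cut proteins, sugars and lipids there, and membrane glycoproteins such as LAMP1 line it. Macrophages are known for a large lysosomal system that serves phagocytosis, whereas dendritic cells use lysosomal proteases to prepare peptides for antigen presentation. Many lysosomal genes share a promoter element around the letters CACGTG, to which the transcription factor TFEB and its relatives bind.

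The 4 tumors contributed 28429 kept cells, between 4771 and 8699 each, and 27686362 to 56715743 UMIs each. Gates held 811 C1q macrophages, 241 Arg1 macrophages, 4202 monocytes, 6439 neutrophils, 291 cDC2, 317 cDC1, 1727 mature dendritic cells, 498 plasmacytoid dendritic cells, 1251 NK cells and 7511 T cells. The 43 cells of the B cell gate were too few and were left out. The C1q list (C1qa, C1qb, C1qc, Ms4a7, Adgre1, Mrc1 and Pf4) lay between 66.8 and 94.2 per 10000 in C1q macrophages. The same list reached 18.2 in the neutrophils and 10.8 in the T cells of Csf1r fl/fl tumor 1, against at most 6.07 in the neutrophils and 2.97 in the T cells of the other tumors. That tumor also had the largest share of cells, 6.82%, whose hashtag count was under 3 times that of the other hashtag. It stands apart in this respect, and counts without it are given beside the results in neutrophils, NK cells and cDC1. The list was also highest there in cDC1, at 2.05 against at most 0.274 in the other tumors. The runs shared 60 kept barcodes. The targeted Csf1r had 1.58 and 2.29 UMIs per 10000 in the C1q macrophages of Csf1r fl/fl tumors and 1.32 and 1.20 in those of Lyve1Cre Csf1r fl/fl tumors. It was also lower with the Cre in monocytes, at 2.22 and 2.24 against 1.39 and 1.37, and in neutrophils, at 1.11 and 0.934 against 0.489 and 0.665. The tumors did not overlap by genotype in any other gated type either. This held also where levels were low, as in T cells, at 0.488 and 0.327 against 0.146 and 0.199. In NK cells the levels were 0.310 and 0.174 against 0.153 and 0.110. The shift was thus not particular to macrophages and monocytes. UMIs from the 3′ end need not cover the deleted part, so these levels of Csf1r do not check the deletion. Lyve1 was at or near 0 in C1q macrophages of all 4 tumors, at 0.00799, 0.00588, 0 and 0.

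The sum of the 40 genes was graded over the leukocyte types, from C1q macrophages down to lymphocytes. In C1q macrophages it was 203.6, 204.0, 202.9 and 215.7 UMIs per 10000, which is above every tumor's value in the other 9 leukocyte types compared. Plasmacytoid dendritic cells (152 ± 12.6, SD, n = 4 tumors), Arg1 macrophages (149 ± 10.5) and monocytes (147, from 135 to 157) followed with overlapping tumors. Neutrophils had 96.5 ± 10.5. The conventional dendritic cells lay lower, at 77.4 ± 3.77 in mature dendritic cells, 71.5 ± 8.90 in cDC1 and 64.3 ± 7.36 in cDC2. T cells (46.4 ± 12.5) and NK cells (41.8 ± 6.21) were lowest and overlapped. The T cell sum was 62.5 in Csf1r fl/fl tumor 1, in which T cells also had the most UMIs of the C1q list, and 32.3 to 47.5 in the other 3 tumors. Cd68, which T cells are not known for, stood at 0.912 ± 0.551 in T cells against 6.81 ± 0.708 in C1q macrophages. How much of the lymphocyte levels is free RNA or doublets was not tested. The 477 cells that passed both the C1q and the monocyte gate were kept out of both types. Their sum was 208 ± 6.57. The order of types above holds for the 40 genes. The sum of 55 further lysosomal genes outside the 40 was highest in cDC1 (mean 315), mature dendritic cells (243.5) and cDC2 (115.5, from 101 to 126.2). C1q macrophages came next, at 88.73 (from 79.28 to 101.5). T cells (40.8) and NK cells (40.68) were lowest for these genes too. This sum weighs genes by their UMIs, and the list includes protease inhibitors such as Cst3. Counted by gene, the order was not the same. Of 54 tested, 26 were higher and 6 lower in C1q macrophages than in cDC2, and 9 were higher and 13 lower in cDC1 than in cDC2.

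**Figure D1:**
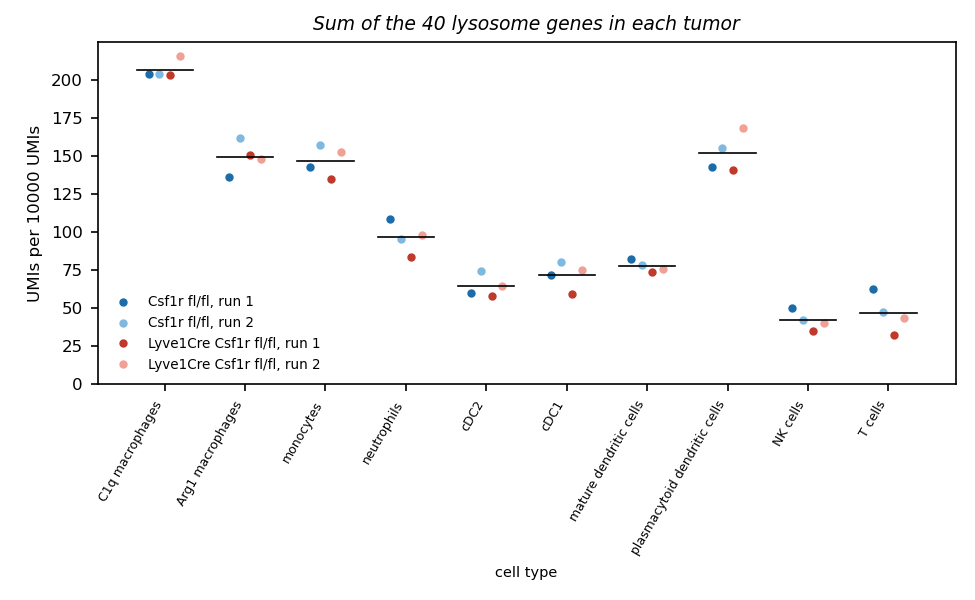
Sum of the 40 lysosomal genes in UMIs per 10000 UMIs (vertical axis) for each gated leukocyte type (horizontal axis). Each point is a tumor and each bar the mean over 4 tumors. C1q macrophages lie between 202.9 and 215.7, above the other types shown.

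The genes did not share 1 order of cell types. C1q macrophages had the highest mean of 16 genes, namely the proteases Ctsa, Ctsb, Ctss, Ctsz, Lgmn and Tpp1, the glycosidases Hexa, Glb1 and Neu1, the acid lipase Lipa, Lamp1, Cd68, the pump subunit Atp6ap1, both phosphatases Acp2 and Acp5, and Tfeb. Plasmacytoid dendritic cells had the highest mean of 10, which were Ctsh, Ctsl, Gaa, Psap, Npc1, Asah1, Grn, Scarb2, Laptm5 and Mcoln1. Arg1 macrophages led for 5 (Ctsd, Naglu, Atp6v0c, Atp6v0d2 and Atp6v1b2), cDC1 for 3 (Gusb, Man2b1 and Ppt1), neutrophils for 3 (Gla, Lamp2 and Atp6v1a), monocytes for 2 (Ctsc and Npc2) and mature dendritic cells for 1 (Cd63). Many of these leads were small. Glb1, Gaa, Lipa and Atp6v1b2 had their highest level in the leading type in 2 of 4 tumors, and Npc2 in monocytes (14.8 ± 0.714) was not separated from that in mature dendritic cells (14.6 ± 0.997).

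**Figure D2:**
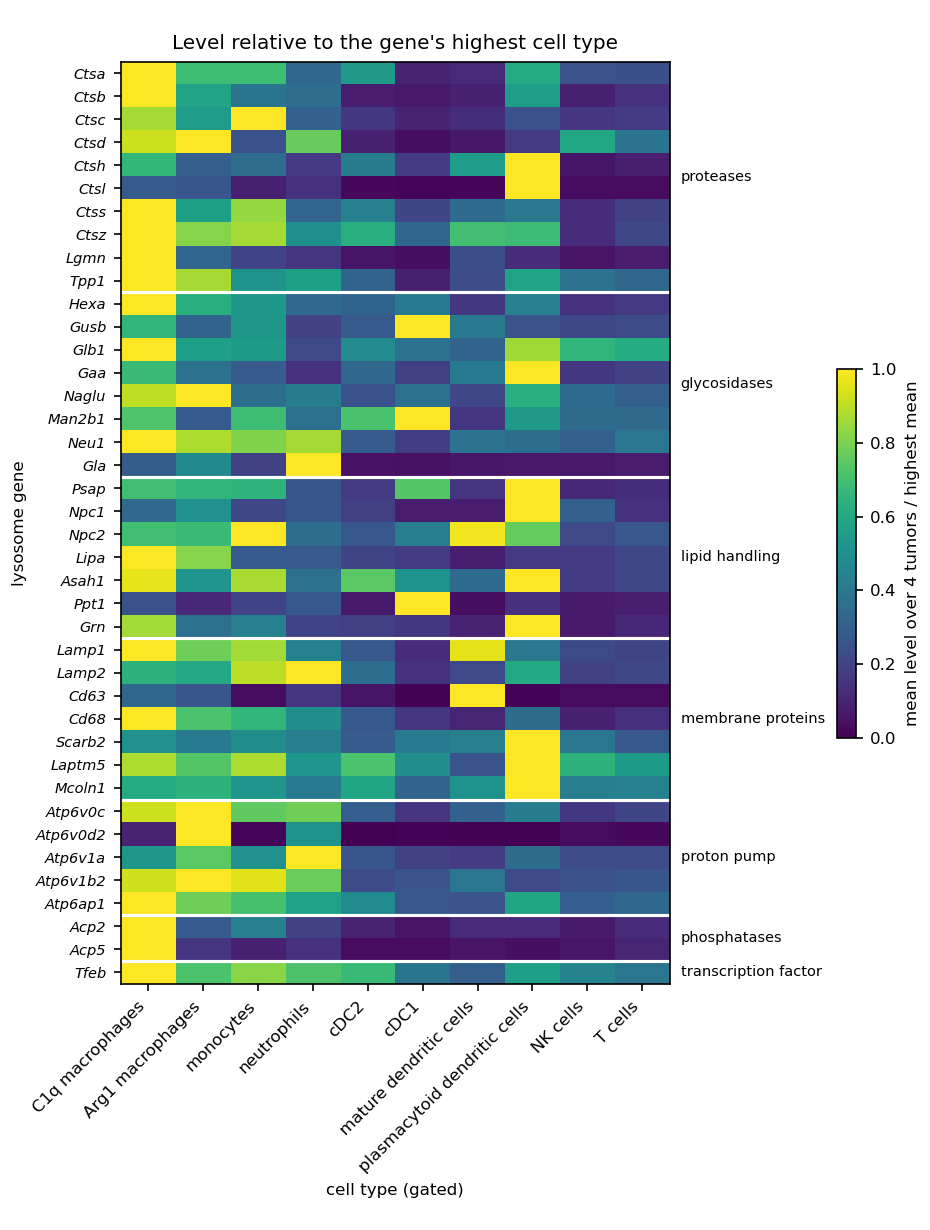
Mean level over 4 tumors of each lysosomal gene (rows, grouped by role) in each gated leukocyte type (columns), divided by the gene's highest mean, from 0 (dark) to 1 (light). C1q macrophages hold the highest mean of 16 genes and plasmacytoid dendritic cells that of 10, while Ppt1, Cd63 and Gla peak in cDC1, mature dendritic cells and neutrophils.

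The promoters of these genes were searched for the element named above, which is shown for 5 genes whose levels are described further on. RefSeq windows of 300 bases, 250 before and 50 after the start, were found for 34 of the 40 genes. The letters CACGTG, which read the same on both strands, were in a window of 11 of the 34 genes (32.4%): Atp6v1a, Ctsa, Ctsd, Ctsl, Gaa, Gla, Glb1, Lamp1, Lgmn, Mcoln1 and Naglu. Of all 27025 genes with a window, 8.09% held it. Counted by window, 25.6% of the 43 windows of these genes and 7.15% of all 32851 windows held it. The longer TCACGTGA, which contains the first motif and also reads the same on both strands, was in 5 of the 34 genes (14.7%) and in 1.12% of all genes. A match describes these letters and does not show that a factor binds there. The 250 bases before the start (GRCm38.p6, 5′ to 3′ on the strand of the gene) are printed with CACGTG in capitals, for Gla on the minus strand at chrX:134601006-134601255, Ctsd on the minus strand at chr7:142387828-142388077, Lamp1 on the plus strand at chr8:13158911-13159160, Lgmn on the minus strand at chr12:102439093-102439342 and Ctsa on the plus strand at chr2:164833523-164833772.
Gla: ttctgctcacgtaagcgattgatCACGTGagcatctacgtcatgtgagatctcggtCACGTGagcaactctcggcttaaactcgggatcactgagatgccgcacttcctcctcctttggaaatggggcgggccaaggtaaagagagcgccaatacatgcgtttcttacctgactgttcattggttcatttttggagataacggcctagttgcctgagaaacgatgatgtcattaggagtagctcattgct
Ctsd: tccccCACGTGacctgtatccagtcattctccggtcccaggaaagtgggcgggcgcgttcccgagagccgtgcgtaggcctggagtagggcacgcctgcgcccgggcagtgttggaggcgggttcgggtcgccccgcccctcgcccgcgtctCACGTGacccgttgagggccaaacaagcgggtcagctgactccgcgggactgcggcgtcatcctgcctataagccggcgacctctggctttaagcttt
Lamp1: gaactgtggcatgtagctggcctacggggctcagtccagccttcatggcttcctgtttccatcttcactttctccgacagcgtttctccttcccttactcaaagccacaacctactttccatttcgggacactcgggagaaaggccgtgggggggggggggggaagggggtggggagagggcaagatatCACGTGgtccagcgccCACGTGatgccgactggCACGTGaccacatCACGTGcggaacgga
Lgmn: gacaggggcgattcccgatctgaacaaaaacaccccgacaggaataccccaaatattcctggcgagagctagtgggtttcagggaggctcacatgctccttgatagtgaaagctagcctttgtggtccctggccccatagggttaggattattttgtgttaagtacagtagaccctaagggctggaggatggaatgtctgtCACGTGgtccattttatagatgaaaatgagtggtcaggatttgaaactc
Ctsa: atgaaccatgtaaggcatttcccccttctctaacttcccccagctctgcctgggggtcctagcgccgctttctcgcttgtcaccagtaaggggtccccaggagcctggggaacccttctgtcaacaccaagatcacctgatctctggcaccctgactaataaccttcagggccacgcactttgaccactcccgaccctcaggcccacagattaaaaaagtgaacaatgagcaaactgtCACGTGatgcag

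Lgmn and Ctsa each have 1 further RefSeq start whose window holds no CACGTG. That start lies nearer the 5′ end of the annotated gene (chr12:102394084-102439813 for Lgmn and chr2:164832873-164841032 for Ctsa). The windows printed for Lgmn and Ctsa belong to starts within the annotated gene. In the 8 comparisons of cell types described next, the median log2 fold changes of the 11 genes with CACGTG and the 23 without it were as follows. They were 1.74 and 1.51 for C1q macrophages against cDC2, 0.70 and 0.13 for C1q macrophages against monocytes, and 0.034 and -0.27 for Arg1 against C1q macrophages. Against cDC2 they were 0.77 and 0.27 in plasmacytoid dendritic cells, -0.63 and -0.53 in cDC1, and 0.17 and 0.061 in mature dendritic cells. For neutrophils against monocytes they were 0.25 and 0.20, and for NK cells against T cells 0.13 and -0.11. The differences between genes with and without the letters were not tested.

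C1q macrophages were compared with cDC2 to set the phagocytes beside the antigen-presenting cells of the same tumors. Of the 40 genes, 31 were higher in C1q macrophages and 0 were lower (edgeR quasi-likelihood test with Benjamini-Hochberg adjustment), beside 13.7% higher and 14.0% lower among all 10695 genes tested. At an unadjusted p under 0.05 the fit gave 0 lower, and DESeq2 called 0 lower. The median log2 fold change of the 40 genes was 1.52, against 0.04 for all genes. By role, 9 of 10 proteases, 5 of 8 glycosidases, 6 of 7 lipid genes, 5 of 7 membrane proteins, 4 of 5 pump subunits, both phosphatases and not Tfeb were higher.

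Acp5, which encodes the tartrate-resistant acid phosphatase known from osteoclasts, lies at chr9:22126727-22135711 in mm10. Its level was 4.73, 3.12, 3.40 and 4.22 UMIs per 10000 in C1q macrophages and 0.0595, 0.105, 0.106 and 0.160 in cDC2, with no overlap. The next cell type, Arg1 macrophages, had 0.614 ± 0.101, and the mean in C1q macrophages was 6.31 times higher. The log2 fold change over cDC2 was 4.95 (SE 0.48, edgeR adjusted p = 2.5e-09).

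Lgmn encodes legumain, a protease that cuts after asparagine, and lies at chr12:102394084-102439813. It stood at 12.8, 11.3, 12.7 and 13.9 in C1q macrophages, 3.05 times the mean of the next type, Arg1 macrophages (4.17 ± 0.382). No tumor of another gated leukocyte type reached the C1q macrophages of any tumor. Over cDC2 the log2 fold change was 3.95 (SE 0.35, edgeR adjusted p = 3.6e-10).

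Ctsb, the cysteine protease cathepsin B (chr14:63122462-63145923), had 26.0, 26.9, 21.8 and 29.3 UMIs per 10000 in C1q macrophages and 1.73, 2.43, 2.08 and 1.74 in cDC2. The groups lay far apart, with a log2 fold change of 3.54 (SE 0.24, adjusted p = 1.6e-12). Ctsl, a second cysteine protease, rose by 3.5 (SE 0.43) and the aspartic protease gene Ctsd by 3.20 (SE 0.27) on the same scale. These were the 5 genes with the largest rise among those past the threshold that moved the same way in every tumor. Ctss, the cathepsin that trims the invariant chain of MHC class II, was also higher in C1q macrophages, by 1.09 (SE 0.16), with 19.1 to 20.1 UMIs per 10000 against 7.91 to 10.1 in cDC2.

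Of 55 further lysosomal genes outside the 40, 54 were tested, of which 26 were higher and 6 lower in C1q macrophages than in cDC2. The metal transporter gene Slc11a1 (6.40, SE 0.64), the phospholipase gene Pla2g15 (5.34, SE 0.49) and Galc, which encodes galactosylceramidase (4.71, SE 0.86), had the largest log2 rises. The protease inhibitors Cst7 and Cst3 fell by 2.31 and 1.73 on the log2 scale, and the carboxypeptidase gene Prcp fell by 1.22.

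**Figure D3:**
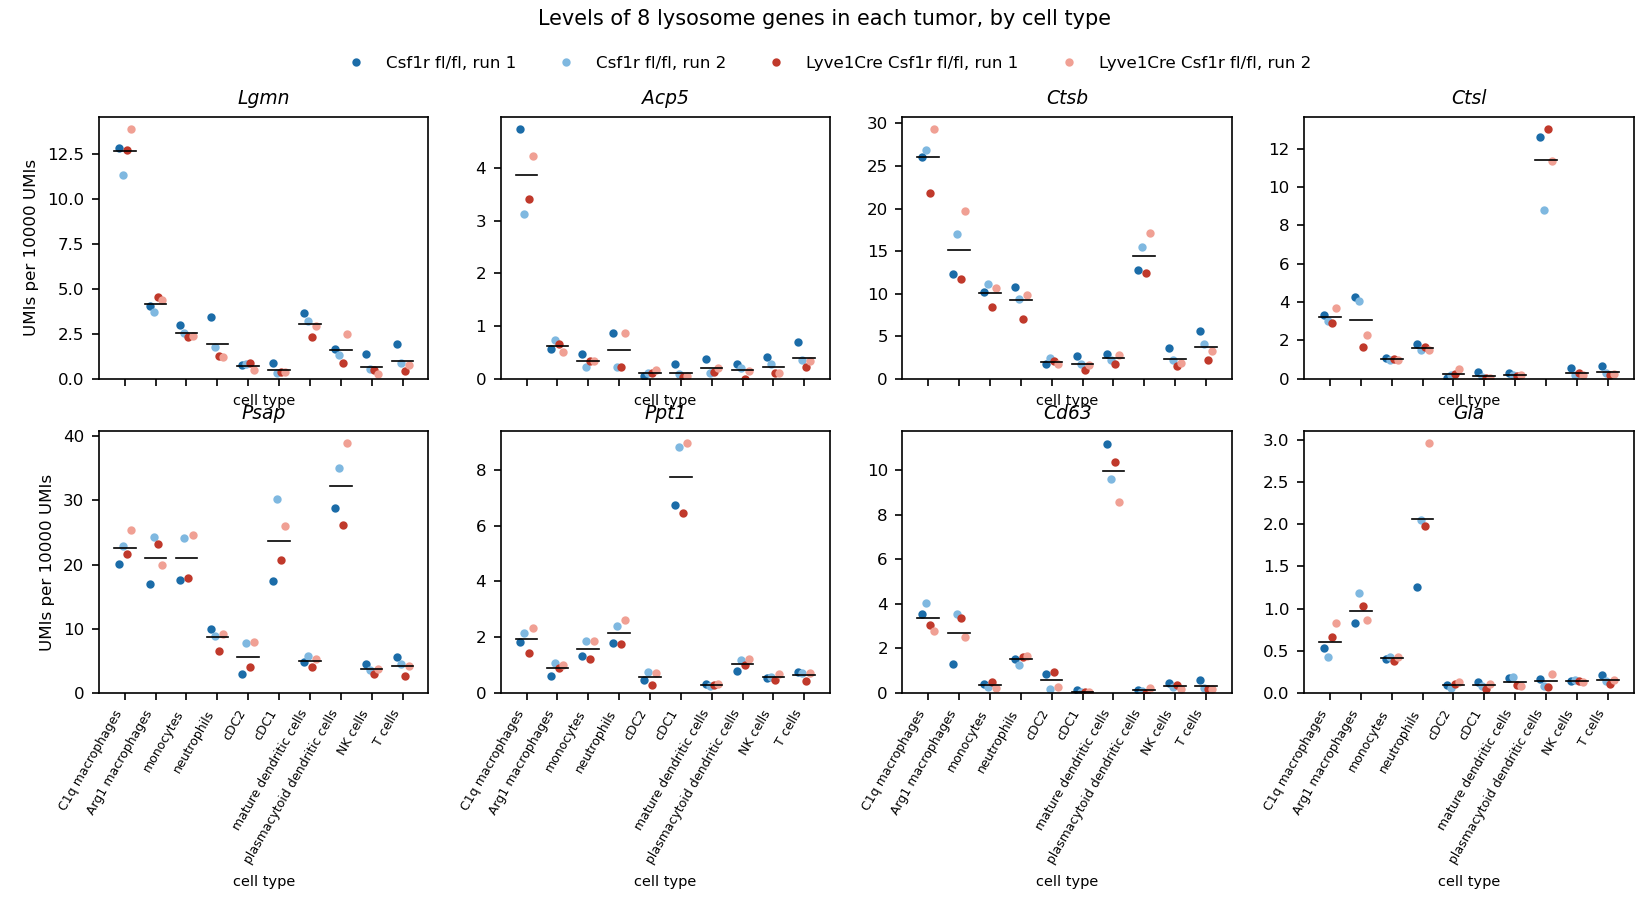
Levels of 8 lysosomal genes in UMIs per 10000 UMIs (vertical axes, each from 0) by gated leukocyte type (horizontal axes). Points are tumors and bars the means over 4 tumors. Lgmn, Acp5 and Ctsb peak in C1q macrophages, Ctsl and Psap in plasmacytoid dendritic cells, Ppt1 in cDC1, Cd63 in mature dendritic cells and Gla in neutrophils.

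Monocytes, which can give rise to macrophages in tissue, were compared next. Against monocytes, 18 of the 40 genes were higher in C1q macrophages and 2 lower, beside 15.9% and 17.5% of all genes tested. The median of the 40 was 0.28 on the log2 scale, against 0.03 for all genes. The largest rises were in Acp5 (3.31, SE 0.30), Cd63 (3.15, SE 0.36), Atp6v0d2, Lgmn (2.14, SE 0.28, adjusted p = 8.1e-07) and Ctsd (1.70, SE 0.21). Cd63, a tetraspanin of late endosomes, had 3.54, 4.01, 3.06 and 2.80 UMIs per 10000 in C1q macrophages and 0.418, 0.250, 0.475 and 0.238 in monocytes. Lipa, the lysosomal acid lipase, had 1.29, 1.23, 1.19 and 1.23 against 0.367, 0.388, 0.311 and 0.329, a rise of 1.62 (SE 0.17, edgeR adjusted p = 1.0e-09). The tumors of the groups did not overlap for either gene.

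Atp6v0d2, a pump subunit known from osteoclasts, rested on few UMIs in this comparison, with 16, 11, 1 and 1 in C1q macrophages and 12, 3, 1 and 0 in monocytes. Its rise of 2.88 (SE 0.83) did not pass the test without Csf1r fl/fl tumor 2 (adjusted p = 0.14). Npc2, a soluble carrier of cholesterol, fell by 0.71 (SE 0.10) and Lamp2, a membrane glycoprotein, fell by 0.67 (SE 0.13), and both were lower in all 4 tumors. The role groups differed in their counts: 7 of 10 proteases and both phosphatases were higher, but 1 of 5 pump subunits and 1 of 7 membrane proteins. Among the other lysosomal genes, 12 of 54 were higher, led by Pla2g15 (1.76), Slc11a1 (1.29) and Plbd2 (1.14), and 10 were lower, led by Sort1, which fell by 2.22, Cd164 (0.84 lower, SE 0.12) and Gm2a (0.64 lower, SE 0.14).

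Arg1 macrophages, gated by Arg1, Mmp12, Spp1, Fn1 and Cd9, had lower levels of both phosphatases and of 5 of the 10 proteases than C1q macrophages, and no protease was called higher. Of the 40 genes, 12 were lower and 2 higher, beside 7.07% and 7.37% of all genes tested, with a median of -0.26 against -0.10 for all genes. Acp5 fell by 2.54 (SE 0.41), Acp2 by 1.71 (SE 0.31), Lgmn by 1.57 (SE 0.31), the mannosidase gene Man2b1 by 1.27 (SE 0.18) and Grn, which encodes progranulin, by 1.19 (SE 0.18). All 5 were lower in every tumor. Acp2, the lysosomal acid phosphatase, had 1.92, 1.95, 2.08 and 2.82 UMIs per 10000 in C1q macrophages and 0.333, 0.760, 0.885 and 0.501 in Arg1 macrophages.

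Atp6v0d2 went the other way, at 0.167, 0.253, 0.652 and 0.788 in Arg1 macrophages against 0.0640, 0.0646, 0.0213 and 0.0250 in C1q macrophages, from 5 to 14 and 1 to 16 UMIs per tumor. The log2 rise of 2.74 (SE 0.71, edgeR adjusted p = 0.0090) did not pass without Csf1r fl/fl tumor 2 (0.071) or Lyve1Cre Csf1r fl/fl tumor 1 (0.098). Npc1, the membrane transporter of cholesterol, rose by 0.77 (SE 0.23), but without Csf1r fl/fl tumor 2, which had the highest level at 1.49, its adjusted p was 0.72, and without the replicate block it was 0.058. In Csf1r fl/fl tumors alone Atp6v0d2 did not pass (0.15). The count of genes higher was 4 without Csf1r fl/fl tumor 1, 0 without Csf1r fl/fl tumor 2 and 1 without Lyve1Cre Csf1r fl/fl tumor 1. Ctsd, which did not pass, had 8.53, 8.13, 4.42 and 8.81 in Arg1 macrophages and 7.01, 6.69, 6.51 and 7.40 in C1q macrophages. Of the other lysosomal genes, 9 were higher and 9 lower. Ctsw (2.56), Cst7 (2.17) and Arsb (1.73) had the largest rises, and the NK marker list also stood higher in Arg1 macrophages, at 4.93, 1.24, 1.49 and 4.73 UMIs per 10000 against 0.616, 0.647, 1.255 and 0.2 in C1q macrophages of the same tumors. The neutrophil list was higher in every tumor as well, at 13.07, 11.85, 16.25 and 11.96 in Arg1 macrophages against 6.99, 4.41, 10.59 and 5.40 in C1q macrophages. The part of both lists was not tested. Ids, Pla2g15 and Slc29a3 fell by 1.75, 1.69 and 1.0.

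Plasmacytoid dendritic cells are the interferon-producing dendritic cells that sense nucleic acids in endosomes. They were compared with cDC2 after their high levels had been seen, so the comparison describes where they differ and was not planned. Of the 40 genes, 13 were higher and 2 lower, beside 16.6% and 15.2% of all genes tested, with a median of 0.45 against 0.01. Of the monocyte markers, Ly6c2 and Plac8 were also high in these cells, at 37.1 and 49.5 UMIs per 10000 against 27.7 and 58.8 in monocytes, whereas Ccr2, Vcan and Chil3 were at 0.834, 0.353 and 0.704 against 4.05, 4.2 and 5.42.

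Ctsl (chr13:64359337-64370890) had 12.6, 8.80, 13.01 and 11.4 UMIs per 10000 in plasmacytoid dendritic cells and 0.0595, 0.222, 0.247 and 0.508 in cDC2. The C1q macrophages, the next type, had 2.94 to 3.67, so that no other gated leukocyte type reached these levels. The log2 fold change over cDC2 was 5.34 (SE 0.41, edgeR adjusted p = 1.6e-11). Among 136 cells gated as stromal or tumor cells, which were not counted as leukocytes, Ctsl lay between 4.81 and 11.9.

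Psap, the precursor of the saposins that present lipids to hydrolases, had 28.9, 35.04, 26.2 and 39.0 in plasmacytoid dendritic cells and 2.95, 7.72, 4.01 and 7.99 in cDC2, a rise of 2.44 (SE 0.20). Ctsb rose by 2.70 (SE 0.24), Grn by 2.31 (SE 0.19) and Npc1 by 2.27 (SE 0.23). The C1q list was at 5.08, 2.62, 0.516 and 3.40 in plasmacytoid dendritic cells against 0.417, 0.971, 0.777 and 0.935 in cDC2, higher in 3 of 4 tumors, and its part was not tested. The B cell list was higher in every tumor, at 7.98 to 9.51 in plasmacytoid dendritic cells against 0.327 to 2.35 in cDC2. So was the CD8 list, at 2.69 to 4.25 against 0.0529 to 0.417, and the part of both was not tested. Npc1 was at 1.36, 1.90, 1.70 and 1.89 against 0.119, 0.421, 0.300 and 0.454, and these tumors did not overlap. Ctsh, an aminopeptidase, had 8.95, 7.06, 8.55 and 7.83, which is 1.51 times the mean of C1q macrophages. Scarb2, the receptor that carries glucocerebrosidase to the lysosome, stood at 1.06 ± 0.187, which is 1.97 times its mean in C1q macrophages. Both were above every tumor of the next type.

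Man2b1 fell by 0.52 (SE 0.15) and Cd63 fell by 2.18 (SE 0.70) in plasmacytoid dendritic cells, and neither passed without Csf1r fl/fl tumor 1 (adjusted p = 0.067 and 0.10). Cd63 did not pass without Lyve1Cre Csf1r fl/fl tumor 1 either (0.21), nor in Csf1r fl/fl tumors alone (0.27), and with clusters in place of gates its direction turned, to 0.15. Of the other lysosomal genes, 19 of 54 were higher, with Galc (4.72), Sort1 (3.46) and Slc11a1 (2.85) first. Cst7, Cst3 and Ids fell by 3.11, 2.09 and 1.24, and they were among 5 that were lower.

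The cDC1, the dendritic cells that cross-present antigen to CD8 T cells, combined a low level of most proteases with a high level of a few glycosidases and genes of lipid handling. Against cDC2, 15 of the 40 genes were lower and 6 higher, beside 11.3% and 11.8% of all genes tested, and the median was -0.57 against 0.01. None of the 10 proteases was higher and 7 were lower.

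Ppt1, which removes palmitate from proteins and is mutated in a childhood neuronal ceroid lipofuscinosis, lies at chr4:122836242-122859175. It had 6.73, 8.82, 6.46 and 8.95 UMIs per 10000 in cDC1 and 0.476, 0.761, 0.282 and 0.721 in cDC2. The neutrophils, the next type, had 1.76 to 2.62, and the mean in cDC1 was 3.61 times higher. The log2 rise over cDC2 was 3.91 (SE 0.16, edgeR adjusted p = 2.1e-23). Psap followed with a rise of 2.20 (SE 0.20), then Gusb, the beta-glucuronidase gene, with 1.90 (SE 0.19) from 1.15 to 1.70 in cDC1 and 0.321 to 0.459 in cDC2. Npc2 rose by 0.77 (SE 0.10) and Man2b1 by 0.61 (SE 0.13). With clusters in place of gates Npc2 turned to -0.21, and Man2b1 did not pass in Csf1r fl/fl tumors alone (adjusted p = 0.12).

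Ctsa, the carboxypeptidase that protects neuraminidase and beta-galactosidase in the lysosome, fell by 2.33 (SE 0.20), from 1.79, 1.99, 1.20 and 1.92 in cDC2 to 0.545, 0.268, 0.160 and 0.307 in cDC1. Cd63 fell by 3.03 (SE 0.72), and without Lyve1Cre Csf1r fl/fl tumor 1 its adjusted p was 0.064. With Csf1r fl/fl tumors alone the adjusted p of Cd63 was 0.19, and with clusters in place of gates its direction turned, to 2.08. The peptidase gene Tpp1 fell by 1.71 (SE 0.35), Ctsh by 1.20 (SE 0.22) and Lamp2 by 1.19 (SE 0.16). Each was lower in all 4 tumors. Tpp1 did not pass with clusters in place of gates (adjusted p = 0.27). Without Csf1r fl/fl tumor 2, 9 genes were lower in place of 15, and without Csf1r fl/fl tumor 1 there were 18. Of the other lysosomal genes, 9 rose, led by Igf2r (3.71), Laptm4b (2.67) and Arsb (2.53), and 13 fell, led by Mitf (3.33 lower, SE 0.99), Cst7 (3.0 lower, SE 0.32) and Cd164 (1.94 lower, SE 0.17).

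Mature dendritic cells, gated by Ccr7, Fscn1, Ccl22, Cacnb3, Il4i1, Nudt17 and Il12b, differed from cDC2 in both directions. Against cDC2, 11 of the 40 genes were higher and 11 lower, beside 25.7% and 18.2% of all genes tested. The median log2 fold change was 0.12 for the 40 genes and 0.12 for all genes, and for rises the share called among the members was near the background. By role, 4 proteases were higher and 1 lower, 2 glycosidases higher and 1 lower, 1 lipid gene higher and 5 lower, and 3 membrane proteins higher and 2 lower.

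Cd63 (chr10:128900989-128912822) had 11.2, 9.62, 10.4 and 8.57 UMIs per 10000 in mature dendritic cells and 0.833, 0.199, 0.953 and 0.267 in cDC2. C1q macrophages, the next leukocyte type, reached 4.01 at most, while the cells gated as stromal or tumor cells had 7.33 to 10.1. The log2 rise was 4.61 (SE 0.42, edgeR adjusted p = 3.0e-10). Lamp1 rose by 2.18 (SE 0.15), from 1.40, 1.42, 1.64 and 1.71 to 5.17, 5.68, 5.04 and 5.67. Npc2 rose by 2.23 (SE 0.11), from between 3.82 and 4.41 to between 13.7 and 15.8. The tumors did not overlap for any of these 3 genes. Lgmn rose by 2.35 (SE 0.34) and the pump subunit gene Atp6v1b2 by 1.01 (SE 0.21). The C1q list was at 4.11, 1.33, 0.657 and 1.29 in mature dendritic cells against 0.417, 0.971, 0.777 and 0.935 in cDC2. It was higher in all but Lyve1Cre Csf1r fl/fl tumor 1, and its part was not tested.

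Among the genes that were lower, Ctsa fell by 1.78 (SE 0.17), Man2b1 by 1.77 (SE 0.14) and Lipa by 0.97 (SE 0.32). The scavenger receptor gene Cd68 fell by 1.10 (SE 0.25) and Laptm5, a lysosomal membrane protein of blood cells, fell by 1.08 (SE 0.09). All 5 were lower in every tumor. In Csf1r fl/fl tumors alone Lipa (adjusted p = 0.097) and Atp6v1b2 (0.051) did not pass. Without Csf1r fl/fl tumor 2, 7 genes were lower in place of 11. Among the other lysosomal genes 16 rose and 8 fell. Galc (4.77), Laptm4b (3.81) and Gnptab (2.73), which encodes part of the enzyme that tags hydrolases for the lysosome, rose most, and Gm2a, Cst7 and Ctns fell by 2.54, 2.22 and 1.93.

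**Figure D4:**
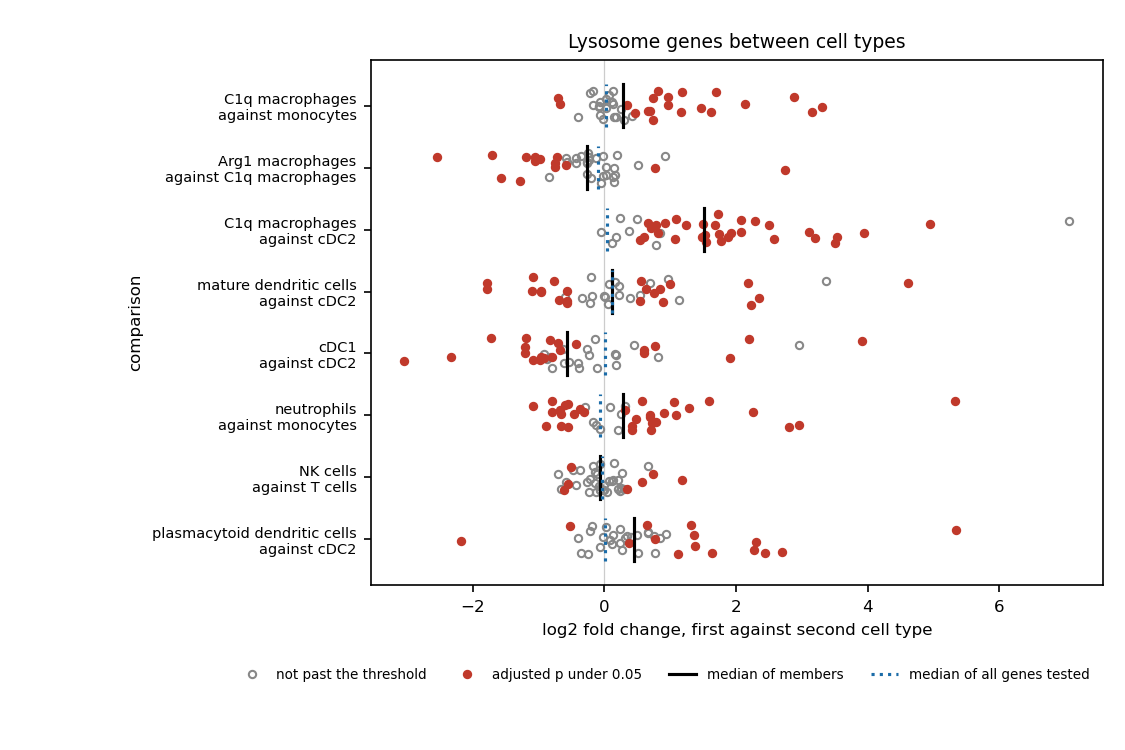
Log2 fold changes of the 40 lysosomal genes (horizontal axis) in each comparison of cell types (vertical axis). Filled points passed the adjusted p threshold, black bars are the medians of the 40 genes and dotted bars those of all genes tested. C1q macrophages against cDC2 has the median farthest from that of all genes, at 1.52 against 0.04, and the open point near 7 there is Atp6v0d2, which had no UMI in cDC2.

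Neutrophils differed from monocytes in most of the 40 genes, in both directions. There were 19 genes higher and 13 lower, beside 26.3% and 27.6% of all genes tested, with a median of 0.28 against -0.07. Without Csf1r fl/fl tumor 1, whose neutrophils had the most UMIs of the C1q list, 21 were higher and 13 lower, and without Csf1r fl/fl tumor 2 the count of lower genes was 8. Of the pump subunits 4 of 5 were higher and none lower.

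Gla encodes alpha-galactosidase A, which is deficient in Fabry disease, and lies at chrX:134588149-134601125. It had 1.26, 2.06, 1.98 and 2.96 UMIs per 10000 in neutrophils and 0.405, 0.429, 0.376 and 0.428 in monocytes. The lowest neutrophil value was in Csf1r fl/fl tumor 1 and still lay above every tumor of every other gated leukocyte type. The log2 rise was 2.95 (SE 0.23, edgeR adjusted p = 2.2e-12). Atp6v1a, the catalytic subunit of the pump, rose by 1.59 (SE 0.16), from 0.948 to 1.38 in monocytes to 1.49 to 3.52 in neutrophils.

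Atp6v0d2 had 0.118, 0.102, 0.221 and 0.515 in neutrophils, from 54 to 144 UMIs per tumor, and at most 0.0164 in monocytes, a rise of 5.33 (SE 0.53). Cd63 rose by 2.80 (SE 0.35) and Ctsd by 2.25 (SE 0.21), the latter from 1.67 to 2.07 in monocytes to 4.76 to 7.45 in neutrophils. No tumors overlapped for these genes. The Arg1 macrophage list was also higher in neutrophils, at 9.74 to 15.6 UMIs per 10000 against 2.75 to 3.95 in monocytes, and its part was not tested. Ctsc, the peptidase that activates granule serine proteases, fell by 1.09 (SE 0.16), from 8.04, 10.4, 7.05 and 10.2 in monocytes to 3.67, 2.83, 1.94 and 2.73. Npc2 fell by 0.88 (SE 0.10), Gusb by 0.79 (SE 0.13), Ctss by 0.79 (SE 0.15) and Psap by 0.67 (SE 0.19), each in all 4 tumors, and Psap did not pass in Csf1r fl/fl tumors alone (adjusted p = 0.18). Of the other lysosomal genes, 26 rose and 9 fell. Ctsk (3.91), Igf2r (2.77) and Slc15a3 (1.58) rose most, and Slc29a3, Scpep1 and Manba fell by 1.15, 0.89 and 0.82.

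NK cells were compared with T cells as the other lymphocytes of the tumors. Of the 40 genes, 4 were higher and 3 lower in NK cells, beside 9.57% and 9.67% of all genes tested, and the medians were -0.07 and -0.03. The shares called among the members were near the background. The count of lower genes was 11 with no filter on low counts, 7 with doublets left out and 21 with clusters in place of gates. Without Csf1r fl/fl tumor 1 there were 6 higher and 5 lower, and without Lyve1Cre Csf1r fl/fl tumor 2 there were 2 higher and 1 lower. Without Csf1r fl/fl tumor 2, 1 was lower. Npc1 was higher by 1.19 (SE 0.16, edgeR adjusted p = 1.1e-07), with 0.366, 0.696, 0.500 and 0.571 UMIs per 10000 in NK cells and 0.228, 0.267, 0.221 and 0.262 in T cells. These values did not overlap.

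Ctsd rose by 0.74 (SE 0.21) in NK cells, Scarb2 by 0.57 (SE 0.14) and Laptm5 by 0.34 (SE 0.08). The Arg1 macrophage list was also higher in NK cells, at 9.59, 4.24, 8.95 and 7.37 UMIs per 10000 against 2.27, 1.43, 1.17 and 1.53 in T cells, and its part in the rises was not tested. Ctsd did not pass without either Lyve1Cre Csf1r fl/fl tumor (adjusted p = 0.084 and 0.12) and Scarb2 did not without tumor 2 of that genotype (0.050). Laptm5 did not pass with no filter on low counts (0.18), without the replicate block (0.15) or in Csf1r fl/fl tumors alone (0.31), and in those tumors alone Ctsd (0.52) and Scarb2 (0.26) did not pass either. The T cells were mixed in Ctsd. Those that passed the CD8 gate had 4.40, 4.62, 3.67 and 3.82 UMIs per 10000 and regulatory T cells had 1.80, 1.75, 1.30 and 1.57, while NK cells had 4.51, 4.70, 3.84 and 4.81. CD8 T cells thus overlapped with NK cells and lay above regulatory T cells in every tumor. These subsets were described without a test.

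Ctsz fell by 0.61 (SE 0.14), Ctss by 0.55 (SE 0.15) and Grn by 0.51 (SE 0.18) in NK cells. Ctss and Grn did not pass without Csf1r fl/fl tumor 2 (adjusted p = 0.11 and 0.25) or Lyve1Cre Csf1r fl/fl tumor 2 (0.075 and 0.16), nor without the replicate block (0.059 and 0.13), with stricter gates (0.11 and 0.40) or in Csf1r fl/fl tumors alone (0.10 and 0.12). The C1q list stood at 7.42, 1.62, 1.44 and 0.403 in NK cells and 10.8, 2.97, 1.16 and 1.98 in T cells, and its part in these 3 falls was not tested. Of the other lysosomal genes 6 rose and 4 fell, with Arsb (2.32) and Ctsw (1.20) among those that rose. Smpd1 (1.41 lower, SE 0.22), Gm2a (1.06 lower, SE 0.15) and Slc15a3 (1.02 lower, SE 0.22) fell most.

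The genotypes were compared within 5 cell types, to learn what changes in the remaining cells of tumors grown in hosts designed to lose LYVE-1+ macrophages. C1q macrophages numbered 400 and 233 of 8699 and 7786 kept cells in Csf1r fl/fl tumors. In Lyve1Cre Csf1r fl/fl tumors they were 106 and 72 of 7173 and 4771. The paper proposes that a macrophage cluster rich in C1q genes holds the LYVE-1+ macrophages, and reports fewer of its cells with the Cre. C1q macrophages are therefore not set apart here from the cells meant to be lost. No lysosomal gene passed the test in any of the 5 types when the run was not a block. With the run as a block, which pairs the tumors of a run, 1 was called higher and 1 lower in neutrophils, and 0 in the other types. The counts that follow are without the block. In C1q macrophages 0 of 39 genes tested were higher and 0 lower, beside 0.0127% and 0.0254% of all 7872 genes. In Arg1 macrophages (35 tested), monocytes (39), neutrophils (40) and cDC2 (32) the counts were also 0 in each direction, beside 0% of all genes both higher and lower. With an unadjusted p under 0.05 there were 0 in C1q macrophages, 2 in Arg1 macrophages, 0 in monocytes, 3 in neutrophils and 1 in cDC2, and DESeq2 called 0 in each type. Among all genes tested, an unadjusted p under 0.05 was reached by 172 higher and 178 lower of 7872 in C1q macrophages and 31 and 40 of 3542 in Arg1 macrophages. The counts were 62 and 73 of 10409 in monocytes, 126 and 155 of 10161 in neutrophils, and 34 and 30 of 5071 in cDC2.

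The values themselves were close in C1q macrophages. Their mean sum of the 40 genes was 204 in Csf1r fl/fl and 209 in Lyve1Cre Csf1r fl/fl tumors. Log2 changes of the 39 genes lay between -0.41 (Mcoln1, SE 0.59) and 0.61 (Gla, SE 0.31). Lgmn differed by 0.13 (SE 0.27), Ctsb by -0.06 (SE 0.28) and Acp5 by -0.07 (SE 0.27), and Acp5 had opposite signs in the runs, at -0.50 and 0.44. On simulated data for this comparison the test recovered 35% of genes changed by 1 and 94% of those changed by 2 on the log2 scale, in Arg1 macrophages 5.0% and 51%, in monocytes 53% and 100%, in neutrophils 22% and 95%, and in cDC2 16% and 94%. Of these, 100 genes were changed in each type. False calls numbered 6 in C1q macrophages, 2 in Arg1 macrophages, 6 in monocytes, 6 in neutrophils and 9 in cDC2, at either size of change. In monocytes the changes lay within -0.26 and 0.25. Within runs, 21 of the 39 genes (53.9%) were lower in the Lyve1Cre Csf1r fl/fl tumor of both runs and 7 (17.9%) higher, beside 23.6% and 25.7% of all genes, and in C1q macrophages 4 of 39 (10.3%) were lower and 14 (35.9%) higher, beside 26.9% and 25.9%. These counts are of genes, which are not replicates, and were not tested.

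In neutrophils, log2 changes lay between -0.91 and 1.84, and in Arg1 macrophages between -1.08 and 1.73. In neutrophils Atp6v0d2 was at 0.118 and 0.102 in Csf1r fl/fl and 0.221 and 0.515 in Lyve1Cre Csf1r fl/fl tumors, with log2 ratios of 1.21 and 2.34 in runs 1 and 2. The fit gave 1.84 (SE 0.37, edgeR adjusted p = 1.0). With the run as a block, which pairs the tumors that shared a Chromium run, the adjusted p was 7.7e-10. A fit with the block rests on 2 pairs of tumors and takes much of its spread from other genes. Its adjusted p-values therefore say little about the spread between pairs. Acp2 went down with the Cre, from 0.699 and 0.467 to 0.285 and 0.252, by 0.91 on the log2 scale (SE 0.31), and had an adjusted p of 1.0 without and 0.014 with the block. Of 10161 genes tested in neutrophils, the block called 51 higher and 57 lower where the fit without it called 0, and 2 of those were of the 40. Without Csf1r fl/fl tumor 1 the fit without the block called 0 of the 40, and the change of Acp2 was -0.64. Without Lyve1Cre Csf1r fl/fl tumor 1 it called 1, Atp6v0d2. Each of these fits leaves 1 tumor in a genotype, whose spread is then taken from the other genotype. The C1q list in the neutrophils of these tumors stood at 18.2, 6.07, 3.74 and 2.35, in the same order as Acp2, and its part was not tested. In Arg1 macrophages Ctsl had 4.27 and 4.08 in Csf1r fl/fl against 1.68 and 2.29 in Lyve1Cre Csf1r fl/fl tumors, a difference of -1.08 (SE 0.35) with an edgeR adjusted p of 1.0. There Atp6v0d2 had 0.167 and 0.253 against 0.652 and 0.788, a difference of 1.73 (SE 0.54) with an adjusted p of 1.0 with and without the block. The genotype effect was not shown to differ between C1q macrophages and monocytes for any of the 40 genes (edgeR interaction test, 0 of 40 past the threshold and 17 of 10321 genes in all, 4 of the 40 at an unadjusted p under 0.05).

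**Figure D5:**
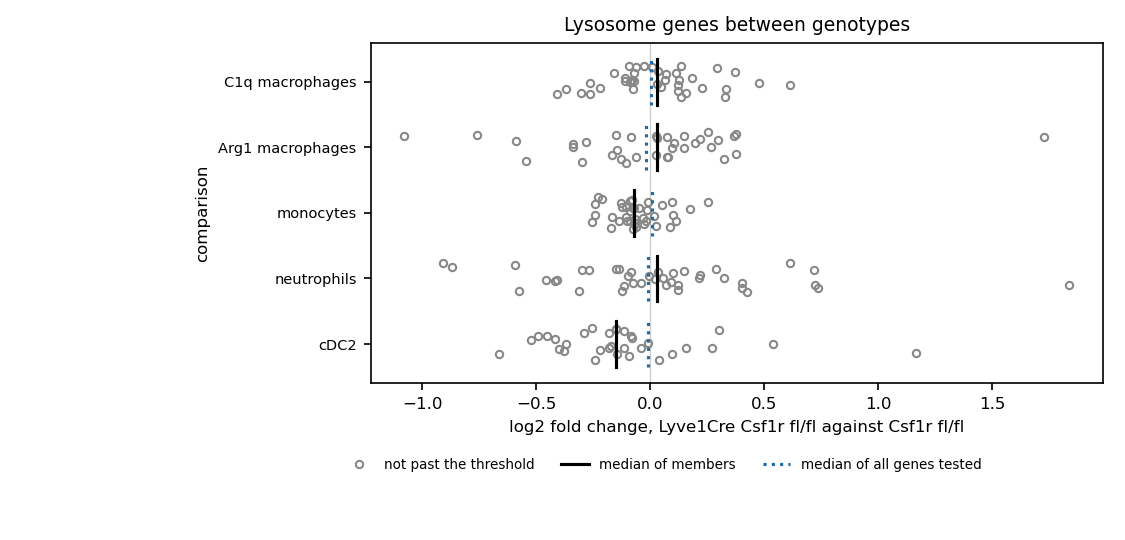
Log2 fold changes of the lysosomal genes between genotypes (horizontal axis) in 5 cell types (vertical axis), each from 2 tumors per genotype. None passed the adjusted threshold in the fit shown, which leaves out the run as a block. Black bars are medians of the lysosomal genes, dotted bars those of all genes tested, and the points farthest right in Arg1 macrophages and neutrophils are Atp6v0d2.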

How the data were processed

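Single-cell RNA was measured in CD45+ cells of 4 EO771 tumors, 2 per genotype. The authors made the deposited UMI counts and hashtag counts with Cell Ranger 6.0.1 on mm10, from 3′ libraries. The normalized table holds SCTransform scores made by the authors with Seurat, and only its cell names were used here. The authors had kept singlets under a mitochondrial limit and removed clusters specific to the second Lyve1Cre tumor. Each cell was assigned to the tumor of its higher hashtag in its run. Of 53361 barcodes, 28429 were kept, with a median of 3721 to 4657 UMIs per cell and tumor. Scrublet marked 21.3% of the cells of run 1 and 12.8% of run 2 as doublets, which were left out only as an alternative.

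A cell entered a type when it had at least 3 UMIs of the marker list and passed a cut on the list's UMIs per 10000, from 5 (cDC1 and cDC2) to 100 (neutrophils). The lists formed a first and a second tier, and a cell had to pass 1 list only of its tier. The second tier held the C1q, Arg1, monocyte, cDC1 and cDC2 lists and was applied to cells that passed no list of the first. Cells of the first tier, such as lymphocytes, neutrophils and plasmacytoid dendritic cells, were kept even if they also passed a list of the second. The 2115 cells in no gate and 2847 in several of the same tier were left out. Counts were summed per tumor and type. Cell types were compared with edgeR 4.0.16 in R 4.3.3 (quasi-likelihood test, TMM, filterByExpr, tumor as a block) over sums of at least 10 cells, and genotypes within a type without the run as a block. P-values were adjusted over all genes tested, with a threshold of 0.05, and SEs are the fold change divided by the root of F. Python 3.11.15 and scanpy 1.11.5 were used for gating and clusters. Sums are of cells, not replicates, and n is the number of tumors. Alternatives were DESeq2 1.42.0, its size factors, no filter, fits without or with the block, stricter gates (chosen after seeing the data), clusters in place of gates, doublets or weakly hashed cells left out, Csf1r fl/fl tumors alone and each tumor left out. On simulated counts for C1q macrophages against monocytes the test recovered 97% of 100 genes changed by 1 on the log2 scale, and made 10 false calls.

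Tumors with the same number shared a Chromium run per the labels, which pairs them. Deviations of same-run tumors correlated across genes, which are not independent, with r = 0.284 in C1q macrophages, 0.0298 in Arg1 macrophages, 0.730 in monocytes, 0.619 in neutrophils and 0.363 in cDC2. Named were up to 5 lysosomal genes each way with the largest change past the threshold in the same direction in every tumor, the genes highest in each type, and up to 3 other lysosomal genes each way, of which 1 result is not reported here. Ctss and Lipa in comparisons where this rule does not name them were chosen after their values were seen, as were the plasmacytoid dendritic cell comparison and the genotype values printed. The lysosomal genes and lists were chosen with earlier results of these data known. Of the 40 genes, 13 share exonic bases with another gene, and their UMIs are uncertain where counting could split them. Most of these partners lie on the opposite strand, as Pltp does for Ctsa. Partners on the same strand were found for Ctsd, Ctsl and Glb1, and only that of Glb1, Tmppe, was in the count table. Gene positions are from GENCODE on mm10.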

Additional observations from a re-analysis of the deposited data

How the results depend on the processing

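Of 162 calls of single lysosomal genes, 89 passed under every alternative run and 111 under all but clusters and the Csf1r fl/fl tumors alone. Of 21 counts of calls, 9 stayed within 1.5 times under every alternative. The cause of the changes was not tested, except that the Csf1r fl/fl tumors alone are fewer samples. Genes lower in C1q macrophages than in monocytes numbered 5 with clusters in place of 2. For Arg1 against C1q macrophages the 2 higher became 4 with DESeq2, no filter, doublets left out or stricter gates, and 1 without the replicate block or with Csf1r fl/fl tumors alone, where 7 in place of 12 were lower. No cluster was named Arg1 macrophages, so clusters gave no value there. For mature dendritic cells 7 were higher with clusters or Csf1r fl/fl tumors alone, and 17 and 7 were lower. Csf1r fl/fl tumors alone gave 9 lower in cDC1, 11 higher and 4 lower in neutrophils and 1 lower in plasmacytoid dendritic cells, and 1 higher and 1 lower in NK cells. Without the replicate block 8 were lower in neutrophils and 1 in NK cells. NK cells had 11 lower with no filter, 7 with doublets left out, 21 with clusters and 1 with stricter gates, and plasmacytoid dendritic cells 7 lower with clusters.

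Between genotypes in neutrophils, 2 members passed with the run as a replicate block and 1 with no filter. The block changed no other genotype call of the 40 genes. Leaving out 1 tumor gave 14 to 19 higher and 2 to 3 lower for C1q macrophages against monocytes, 0 to 4 and 8 to 12 for Arg1 macrophages, 29 to 32 and 0 against cDC2, 8 to 10 and 7 to 14 for mature dendritic cells, 5 to 6 and 9 to 18 for cDC1, 13 to 21 and 8 to 13 for neutrophils, 2 to 6 and 1 to 5 for NK cells, 13 to 16 and 0 to 2 for plasmacytoid dendritic cells, and 0 to 1 between genotypes in neutrophils.

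Signs turned with clusters only. Against cDC2 the log2 change became -0.15 for Scarb2 in C1q macrophages, -0.058 for Ctsb in mature dendritic cells, 0.30 for Ctsd, -0.21 for Npc2, 2.08 for Cd63 and -0.12 for Scarb2 in cDC1, and -0.069 for Lamp2, 0.15 for Cd63 and -0.087 for Laptm5 in plasmacytoid dendritic cells. Of the cells in the cluster named cDC2, 17.1% passed the cDC2 gate. Atp6v0d2 had 0 UMIs in cDC2, which limits its comparison there.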

Other observations

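Among the other lysosomal genes, those that passed between genotypes in neutrophils with the run as a block were Igf2r, higher by 1.04 on the log2 scale (edgeR adjusted p = 0.0011), Ctsk, also higher, and Dnase2a, which fell by 0.88 (0.032). These were 2 higher and 1 lower of 54 tested, beside 51 higher and 57 lower of all 10161 genes. Igf2r encodes the receptor that sorts hydrolases to the lysosome, and Dnase2a a lysosomal nuclease. Without the block none of them passed, and the limit given above for fits with the block applies here too.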
